A study of Homo sapiens with 4 samples.

Results

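The 9 regulators of the immediate-early and stress response described here are JUN, FOS, FOSL2, ATF3, EGR1, MYC, KLF6, CEBPB and CDKN1A, in HepG2, a human liver tumour cell line. Peaks were taken from 1 deposited list of regions where H3K4me1 ChIP reads from LSD2-depleted cells exceeded those from control cells. Every distinct peak that overlapped a gene span, widened by 50 kb on each side, was included. The spans were set to the nearest 1 kb on the genome build hg19, by gene name and not from peak positions. The choice of genes was made with earlier results of these data known. This gave 54 of the 160601 distinct peaks in the list. The 9 windows measure 1.02 Mb together, and 8 of them held at least 1 peak.

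The study asked how H3K4me1, the monomethyl mark on a lysine of histone H3 that is typical of enhancers, differs once LSD2 is depleted. LSD2 is the product of KDM1B, a demethylase that acts on this lysine. The group with knockdown, LSD2-KD H3K4me1, is HepG2 treated with siRNA against LSD2, and the control group, Cont H3K4me1, is HepG2 with a control siRNA that the file header calls siGL3. Both were grown in high-glucose medium with serum, received siRNA by lipid transfection and were precipitated with the same H3K4me1 antibody. An input library of each completes the 4 samples, and the header names neither in the call. Each group has 1 library, so no test between conditions could be made. Depth is unknown, since no read totals are given in the sources used here. Transcript levels of the 9 genes, and of KDM1B itself, were not measured in these data. The values describe 1 pair of libraries. The list runs in 1 direction, so a window without a peak can be unchanged, lower after knockdown or too thinly covered, and these cannot be told apart.

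Immediate-early genes are switched on within minutes of a growth factor or stress signal, without new protein synthesis, by factors that already sit at their promoters and enhancers. JUN, FOS, FOSL2 and ATF3 encode basic leucine zipper proteins that take part in AP-1 and related dimers. CEBPB is a basic leucine zipper protein of another family, with a central place in the acute-phase response of liver. EGR1 and KLF6 bind DNA through zinc fingers, and MYC pairs with MAX through a helix-loop-helix. CDKN1A encodes p21, an inhibitor of cyclin-dependent kinases and a classical target of p53; it is a response gene and not a transcription factor. Enhancers carry H3K4me1, while the start of an active gene itself usually carries the trimethylated form, flanked by H3K4me1.

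The promoters of 4 entries are shown as examples of the regulatory sequence of these genes. No relation between promoter letters and peaks was tested. ATF3 is the gene with the peaks closest to its outer start, EGR1 is the gene whose window held no peak, and JUN and KLF6 share an 8-letter element with ATF3. The sequences are the 250 bases upstream of the gene start in RefSeq, build GRCh38.p14, read 5′ to 3′ on the strand of the gene. They were not placed on hg19. Capitals mark letters that match a searched motif on either strand.
ATF3, outer start, chr1:212565157-212565406, plus strand: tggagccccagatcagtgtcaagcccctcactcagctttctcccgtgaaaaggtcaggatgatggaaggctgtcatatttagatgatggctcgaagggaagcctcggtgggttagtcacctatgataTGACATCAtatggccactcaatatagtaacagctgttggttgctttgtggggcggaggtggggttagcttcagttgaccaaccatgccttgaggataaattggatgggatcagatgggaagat
JUN, chr1:58784048-58784297, minus strand: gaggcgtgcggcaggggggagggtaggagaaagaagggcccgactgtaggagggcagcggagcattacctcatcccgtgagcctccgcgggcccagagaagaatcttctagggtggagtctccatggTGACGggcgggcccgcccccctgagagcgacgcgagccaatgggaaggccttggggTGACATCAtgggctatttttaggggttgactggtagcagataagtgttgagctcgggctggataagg
KLF6, chr10:3785210-3785459, minus strand: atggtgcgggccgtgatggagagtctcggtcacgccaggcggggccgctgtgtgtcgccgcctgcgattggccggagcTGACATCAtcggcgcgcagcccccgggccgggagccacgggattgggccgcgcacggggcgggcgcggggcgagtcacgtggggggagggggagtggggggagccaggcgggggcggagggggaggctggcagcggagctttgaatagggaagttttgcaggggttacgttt
EGR1, chr5:138465229-138465478, plus strand: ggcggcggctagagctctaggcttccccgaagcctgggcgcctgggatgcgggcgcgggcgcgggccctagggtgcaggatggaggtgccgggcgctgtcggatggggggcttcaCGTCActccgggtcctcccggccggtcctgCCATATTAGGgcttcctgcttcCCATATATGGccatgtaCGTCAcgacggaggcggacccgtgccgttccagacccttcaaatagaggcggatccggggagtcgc

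The RefSeq promoter table held 10 entries for 8 of the 9 genes, and both strands of the 250 upstream bases were searched for 6 motifs. The AP-1-like element TGACATCA, known from the JUN promoter, stood in the entries of JUN, KLF6 and ATF3, and in 2.37% of all 35116 promoters in the table. It lay 67 bases before the start of JUN, 172 before KLF6 and 123 before the outer ATF3 start. Within these 250 bases, the CArG box, the site of serum response factor, was found in EGR1 alone among the entries. Its 2 copies began 105 and 83 bases before the start, and 1.16% of all promoters held the motif. Sites farther from the start, of FOS or any other gene, were outside the search, and MYC had no entry. Absence here therefore does not show that a gene lacks the site. The core TGACG of cyclic AMP response elements was present for JUN, FOS, FOSL2, EGR1 and 1 of the 2 CEBPB entries, and in 21.2% of all promoters. TATAAA was found for FOS, the inner ATF3 entry and 1 CEBPB entry, against 10.7% of all promoters. The full element TGACGTCA (1.65% of all promoters) and the AP-1 site TGANTCA (6.57%) matched none of the 10 entries. TGACG is contained in TGACGTCA, and TATAAA can be the core of a CArG box, though neither EGR1 copy held it. No other pair of motifs is nested. The upstream bases of CDKN1A held no match.

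The 9 windows together held about as many peaks as other stretches of the same length on their chromosomes. Windows of each gene's length were tiled along its chromosome from the first peak to the last, leaving out stretches without a peak for more than 1 Mb. The 54 peaks (95% exact Poisson interval 40.6 to 70.5) compare with 62.9 for the sum of the 9 chromosome means, a ratio of 0.858 (0.645 to 1.12). Against windows within 5 Mb on each side the sum was 65.5 and the ratio 0.824 (0.619 to 1.08). Both intervals include 1. Intervals here reflect counting error alone, as if peaks were independent of each other. Of the 9 windows, 8 held a peak, against 98.0% of the tiled windows, and 4 held more peaks than the mean of their chromosome, against 45.5%. The shares for each gene's own length and chromosome sum to 8.8 of 9 windows with a peak. EGR1 was the window without a peak, and both counts are near their background. The 4 were FOS, ATF3, MYC and CDKN1A; when peaks within 1 kb were merged, 2 of the 9, FOS and ATF3, were above the mean, and the other alternatives to the counting gave 3 to 6.

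Individual genes ranged from 0 to 12 peaks, with a median of 6. In falling order they were ATF3 with 12, CDKN1A with 10, FOS with 8, then FOSL2, MYC and KLF6 with 6 each, CEBPB with 4, JUN with 2 and EGR1 with 0. Neighbours in this order had overlapping Poisson intervals, so the order itself is not resolved by counting error. By raw count, which does not allow for window length or chromosome density, EGR1 did not overlap ATF3 or CDKN1A. The upper limit of EGR1 was 3.69, and the lower limits of ATF3 and CDKN1A were 6.2 and 4.8. On their own chromosomes, 2.19% of windows were empty like EGR1. The shares with at least as many peaks as ATF3 and CDKN1A were 23.4% and 34.5%. Relative to the chromosome means, the upper limit of EGR1 was 0.662 and the lower limit of CDKN1A 0.58, so these 2 overlapped. The lower limits of ATF3 and FOS were 0.714 and 0.709, both above the upper limit of EGR1. EGR1 and ATF3 are the extremes of the 9 counts, and how often other pairs of windows differ as much was not tested. ATF3 has the longest window, 157 kb, because its span is 57 kb long. Per 100 kb the highest value was 8.93 peaks for CDKN1A, followed by 7.69 for FOS and 7.64 for ATF3, and the others lay at 5.66 or below.

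**Figure D1:**
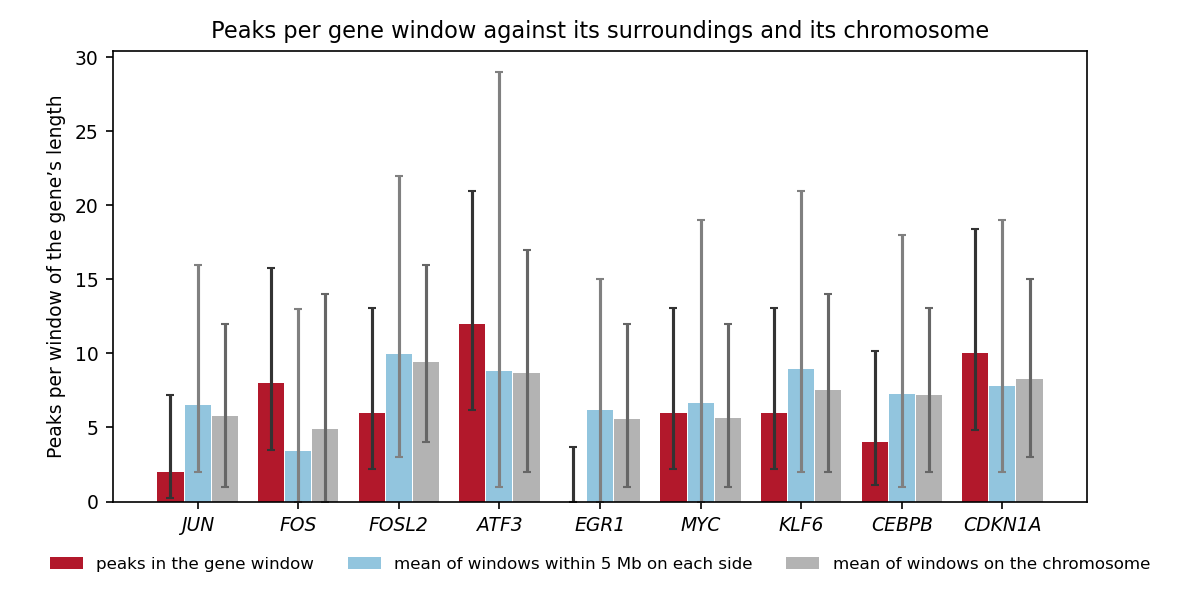
Peaks per gene window (red, bars with 95% exact Poisson intervals), the mean of windows of the same length within 5 Mb on each side (blue, lines from the lowest to the highest window) and the mean over the chromosome (grey, lines from the 5th to the 95th percentile of windows). EGR1 has 0 peaks and JUN 2, while FOS, with 8, exceeds the 3.4 of its surroundings.

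JUN, the defining partner of AP-1 dimers, had 2 peaks in its 104 kb window (span chr1:59.246-59.250 Mb, minus strand). One of them, at chr1:59246712-59247003 and 292 bp wide, lay inside the gene span, 3 kb downstream of the 5′ end and so toward the 3′ end of this short gene. It was the widest and nearest peak of the window and was written in 2 rows of the list. The other, at chr1:59227910-59228105, lay 17.9 kb beyond the 3′ end. Upstream of JUN, on the side of the divergent transcript JUN-DT and of FGGY, no peak lay within 70.2 kb. The chromosome mean was 5.76 peaks per window, so the ratio was 0.347 (0.042 to 1.25). Of the chromosome 1 windows 15.9% held 2 or fewer, and of the 94 surrounding windows 1.06%, the lowest holding 2. The count depends on the width of the window: the ratio was 0.666 with 25 kb on each side and 1.06 with 100 kb.

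FOS, the inducible partner of JUN, had 8 peaks in 104 kb (span chr14:75.745-75.749 Mb, plus strand), none of them in the gene. Of these, 2 lay upstream, 10.7 and 31.3 kb from the start, the farther one being the widest of the window at 431 bp (chr14:75713260-75713690). The other 6 lay downstream, on the side of JDP2, a dimerization partner of JUN. Nearest to the start was a peak of 186 bp at chr14:75754366-75754551, 9.37 kb from it. Beyond it, the other 5 downstream peaks formed 2 groups, of 2 peaks within 5.36 kb and 3 within 6.43 kb. Chromosome 14 is sparse here, with 3.4 ± 2.72 peaks (SD over 94 windows) in the surroundings, and 8.51% of those windows held 8 or more, as did 24.2% of the windows of the whole chromosome. The ratio was 2.35 to the surroundings and 1.64 (0.709 to 3.24) to the chromosome, and the latter interval includes 1. The ratio to the chromosome was 1.58 with 25 kb on each side and 1.15 with 100 kb.

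FOSL2, a Fos family member that is less transient than FOS, had 6 peaks in 123 kb (span chr2:28.615-28.638 Mb, plus strand). They left the start free: the nearest upstream peak was 49.4 kb away and the nearest downstream peak 22.8 kb away, at the very end of the gene (chr2:28637767-28638060, 294 bp). The peak-free stretch across the start was 72.2 kb. On chromosome 2, 5.22% of all peak-free bases lay in stretches that long (gaps over 1 Mb left out). The remaining 4 downstream peaks lay toward PLB1. Among these was one of 915 bp at chr2:28652420-28653334, a width reached by 1.31% of the list, and a group of 3 within 4.24 kb. The median width of the FOSL2 peaks was 506 bp. The upstream peak, at chr2:28565040-28565590, began 0.039 kb inside the limit of the window. Chromosome 2 is dense, at 9.43 peaks per window, so the ratio was 0.636 (0.234 to 1.39). It was 0.357 with 25 kb on each side, 1.02 with only peaks no narrower than the list median and 0.982 by covered bases.

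ATF3, a stress-induced repressor, had 12 peaks in 157 kb (span chr1:212.738-212.795 Mb, plus strand), of which 5 lay upstream, 4 in the gene and 3 downstream. A set of 3 peaks stood almost in contact just inside the outer start, at chr1:212739223-212739567, chr1:212739599-212739930 and chr1:212740050-212740475. They were 345, 332 and 426 bp wide, with gaps of 31 and 119 bp, and covered 1103 bp of 1.25 kb. The first began 1.22 kb from the outer end of the span. The fourth peak in the gene, at chr1:212769679-212770393, was the widest of the window at 715 bp and lay 31.7 kb from that end. On the upstream side 2 peaks lay 4.91 and 6.74 kb from the start, and the one farther out was 548 bp wide. RefSeq lists 2 starts for ATF3, and distances here run from the outer one, at a precision of 1 kb. The chromosome mean was 8.69 and the ratio 1.38 (0.714 to 2.41), and 23.4% of chromosome 1 windows held as many. The ratio was 1.18 with 25 kb on each side and 1.06 with 100 kb.

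**Figure D2:**
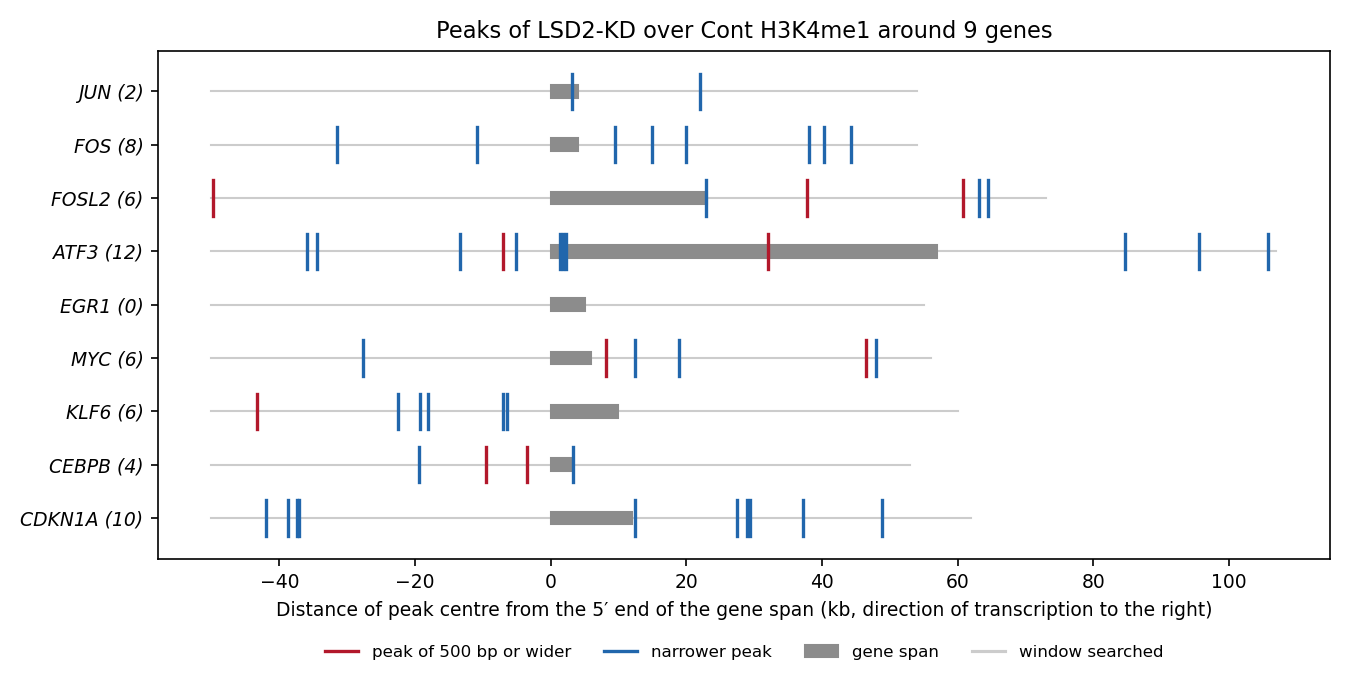
Position of each peak centre relative to the 5′ end of the gene span, in kb, for the 9 genes, with transcription running to the right and the number of peaks in brackets. Peaks of 500 bp or wider are red, narrower ones blue, the span is dark grey and the window light grey. Only JUN, FOSL2 and ATF3 have peaks in the span; those of KLF6 are all upstream, and the EGR1 window is empty.

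CEBPB had 4 peaks in 103 kb (span chr20:48.807-48.810 Mb, plus strand), on both sides of a gene with no peak in its span. Upstream lay a peak of 933 bp at chr20:48803048-48803980, 3.02 kb from the start and the widest of all 54; 1.21% of the list was as wide. Next to it, 9.19 kb from the start, lay one of 632 bp. Downstream, a peak of 487 bp at chr20:48810047-48810533 began 0.046 kb past the end of the span. The fourth, at chr20:48787326-48787753, was 19.2 kb upstream and was the one peak of the 54 written in 3 rows. All 4 were 428 bp or wider, and their median was 560 bp, while the whole list had 316 bp. The number of peaks was below the chromosome mean of 7.17, at a ratio of 0.558 (0.152 to 1.43). It depended on what was counted: the ratio was 1.08 with 25 kb on each side, 0.99 with 100 kb, 1.05 with only peaks no narrower than the list median and 0.948 by covered bases.

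EGR1, a zinc finger factor driven by serum response factor, had no peak in 105 kb (span chr5:137.801-137.806 Mb, plus strand), between REEP2 and ETF1 in the gene table. The nearest peaks lay 75.4 kb upstream and 55.5 kb downstream of the start, and the downstream one was 0.547 kb outside the window. The stretch of 131 kb between them ranks among the longer ones of chromosome 5, where 4.31% of peak-free bases lay in stretches as long. The chromosome mean was 5.58 peaks, above the upper Poisson limit of 3.69 that a count of 0 allows. Windows without a peak made up 2.19% of those on chromosome 5, and 1.08% of the 93 in the surroundings. With 100 kb on each side the ratio to the chromosome was 0.552.

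KLF6, the other zinc finger gene, had 6 peaks in 110 kb (span chr10:3.818-3.828 Mb, minus strand), all of them upstream. They formed a pair 6.28 and 6.91 kb from the start, 283 bp apart, a group of 3 between 17.9 and 22.4 kb, and a single peak of 834 bp at chr10:3870882-3871715, 42.9 kb from the start. Nearest was the peak at chr10:3834280-3834625, 346 bp wide. Toward the 3′ side no peak lay within 73.3 kb of the start. Stretches as long as the 79.6 kb around this start held 9.12% of the peak-free bases of chromosome 10. The ratio to the chromosome mean of 7.54 was 0.795 (0.292 to 1.73), and 1.21 with 25 kb on each side.

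MYC, a growth regulator that is also an immediate-early gene, had 6 peaks in 106 kb (span chr8:128.748-128.754 Mb, plus strand), 1 upstream and 5 downstream. The upstream peak lay 27.5 kb from the start, on the side of CASC11. The downstream peaks ran toward PVT1, a long non-coding gene next to MYC. The closest was 524 bp wide at chr8:128755874-128756397, 1.87 kb past the end of the span and 7.87 kb from the start. The widest, 564 bp, lay at chr8:128794259-128794822, beside another peak 0.985 kb away. Whether these peaks lie inside PVT1 was not analysed here. The count was close to the chromosome mean of 5.62, at a ratio of 1.07 (0.392 to 2.32).

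CDKN1A, the p21 gene, had 10 peaks in 112 kb (span chr6:36.644-36.656 Mb, plus strand), 4 upstream and 6 downstream, none in the gene span. The 4 upstream peaks formed a single group of 5.2 kb that ended 37 kb from the start, on the side of SRSF3, with the closest pair 69 bp apart. Downstream, the nearest peak lay 12.3 kb from the start and 0.314 kb past the end of the span (chr6:36656315-36656701, 387 bp). A group of 3 peaks within 2.22 kb followed, on the side of RAB44. The widest of the 10 was 433 bp (chr6:36606333-36606765), so this window was rich in peaks and held none of 500 bp. The ratio to the chromosome mean of 8.27 was 1.21 (0.58 to 2.22), but 0.956 with peaks within 1 kb merged and 0.873 with 25 kb on each side.

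Peak counts in the gene bodies and near the starts were close to those of their chromosomes. Of the 54 peaks, 6 overlapped a gene span, 22 lay upstream and 26 downstream. A peak was found in 3 of 9 spans, JUN, FOSL2 and ATF3, against 30.5% of tiled segments of the same lengths. The sum of the shares for each gene's own length and chromosome was 3.86 of 9. These shares rose with span length: 91% for ATF3, 80.1% for FOSL2 and 20.7% for JUN. For the spans without a peak they ran from 17.3% for FOS to 57.3% for CDKN1A. Spans were set to the nearest 1 kb. Whether the peaks at the 3′ ends of FOSL2, CEBPB and CDKN1A lay inside these genes is therefore not resolved. A span widened by 1 kb on each side held a peak for 5 genes, CEBPB and CDKN1A being added. The background share for the widened lengths was not computed, so this count cannot be set against the 3.86. A peak lay within 5 kb of the 5′ end for 3 of 9 genes, JUN, ATF3 and CEBPB, against 45.0% of points spaced every 10 kb along the same chromosomes. The median distance from the 5′ end to the nearest peak was 7.87 kb, from 1.22 kb for ATF3 to 55.5 kb for EGR1, and 5.86 kb for those points. For ATF3 both results use the outer start, and distances from its inner start were not computed. By distance, the first 10 kb upstream held 6 peaks (2.2 to 13.1) against 5.5 for the chromosome mean, and the first 10 kb downstream 5 (1.62 to 11.7) against 5.5. Between 10 and 25 kb there were 6 upstream and 8 downstream, against 8.26 on each side. Between 25 and 50 kb there were 10 upstream and 13 downstream, against 13.8 on each side. Every interval included the chromosome mean.

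**Figure D3:**
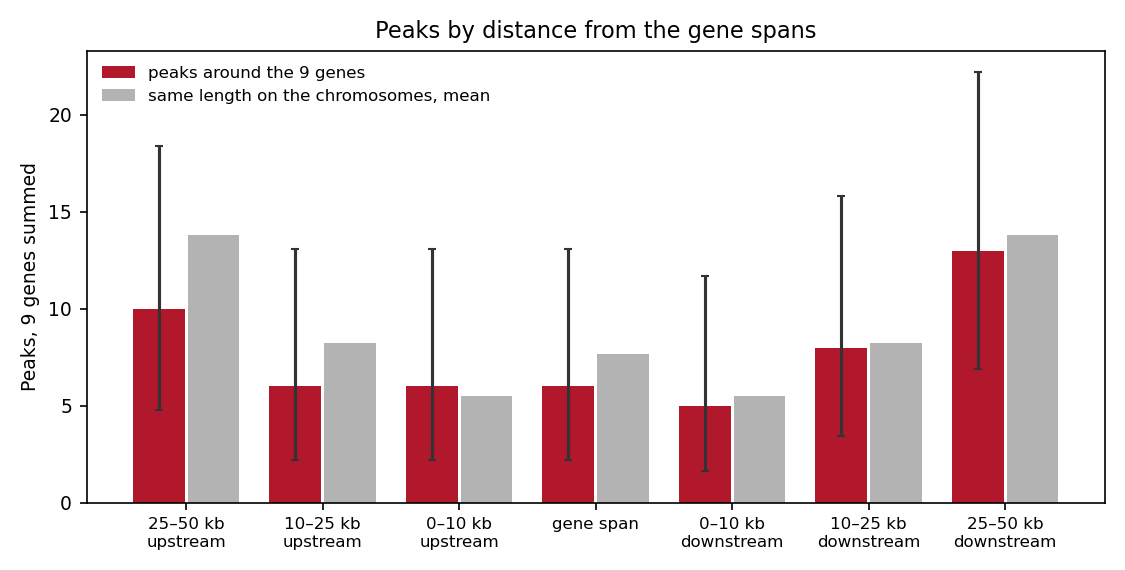
Number of peak centres by distance from the gene spans, summed over the 9 genes (red, with 95% exact Poisson intervals), beside the mean for the same lengths on the same chromosomes (grey). The interval includes the grey bar in each class, from 6 against 5.5 in the first 10 kb upstream to 6 against 8.26 between 10 and 25 kb upstream.

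Median peak width ran from 244 bp for JUN to 560 bp for CEBPB among the genes with a peak. The median of the 54 peaks was 342 bp (quartiles 248 and 430 bp, range 173 to 933 bp), with a 95% order-statistic interval of 288 to 371 bp that includes the 316 bp of the whole list. A width of 420 bp or more, a limit chosen after the widths of the list were seen, was reached by 16 of the 54. That is 29.6% (95% Wilson interval 19.1 to 42.8%), against 17.8% of the list, which lies below that interval. Many of these 16 came from FOSL2 and CEBPB, whose 6 and 4 peaks had median widths of 506 and 560 bp. The share without these genes was not computed. A width of 500 bp or more was reached by 10 of the 54, or 18.5% (10.4 to 30.8%), against 11.2% of the list, which lies within it. Of these 10, FOSL2 had 3, ATF3, MYC and CEBPB 2 each and KLF6 1. FOS, JUN and CDKN1A, with 20 peaks between them, had none. Another peak lay within 5 kb of 32 of the 54, 59.3% (46 to 71.3%), against 52.2% of the list. The peaks formed 12 groups of 2 to 4 members no more than 5 kb apart, and JUN and CEBPB had no such group.

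**Figure D4:**
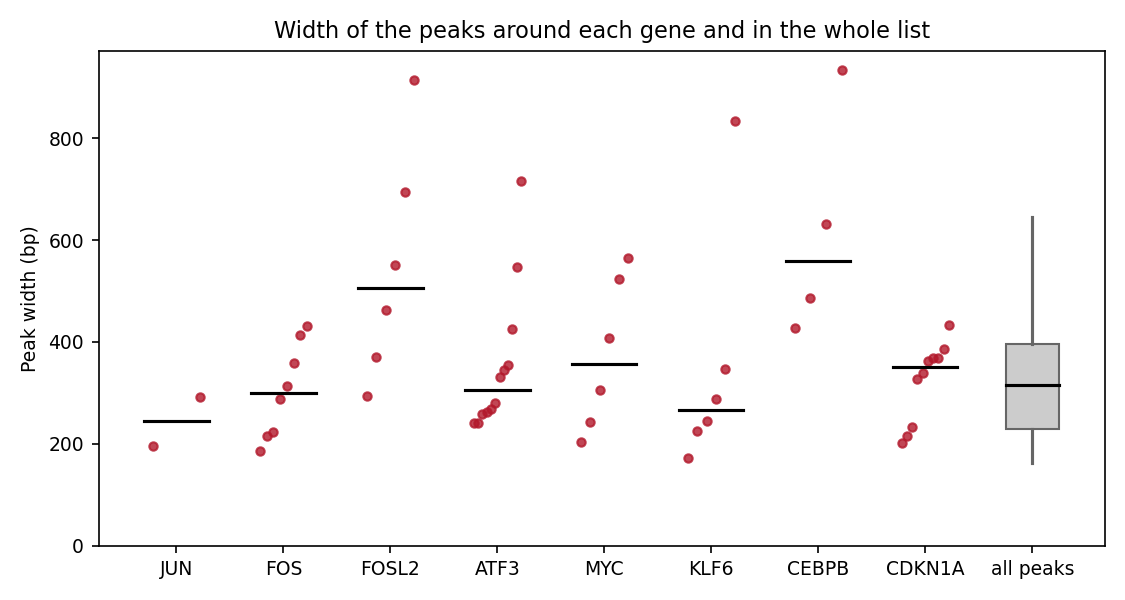
Width in bp of every peak around each gene (red points, black line at the median), beside the whole list (box from the lower to the upper quartile, lines to the 5th and 95th percentiles, black line at the median of 316 bp). All 4 CEBPB peaks are 428 bp or wider, those of FOSL2 reach 915 bp, and no FOS or CDKN1A peak exceeds 433 bp.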

How the data were processed

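H3K4me1 ChIP-seq and input libraries of HepG2 were made by the submitters from sonicated, crosslinked chromatin and sequenced on semiconductor instruments, per the labels' protocols. The submitters' processing notes name BWA and hg19; no version of either tool or caller is stated there. Per the file headers, the authors trimmed reads, removed duplicates and called peaks with MACS, with LSD2 siRNA H3K4me1 as treatment and GL3 siRNA H3K4me1 as control. Per the same header, reads and fragments were set to 128 bp, the p-value cutoff to 1e-05, the enrichment factor to 32 and the effective genome size to 2700000000 bp. The deposited columns are chromosome, start and end, with no height, fold or p-value per peak, so peaks count alike. Fragment length limits how narrow a peak can be.

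The 180505 deposited rows were reduced to 160601 distinct peaks, 54 of which (61 rows) overlapped the windows. Positions are printed counted from 1. The members and lists were chosen with earlier results of these data known. All 9 genes are named; of their peaks, those in a span, nearest to the 5′ end, widest, or in 3 or more rows are given with positions. The strand came from the RefSeq promoter table, for MYC from textbook knowledge. Gene neighbours are names from a GRCh38.p14 table, whose positions were not set against the peaks. Other immediate-early genes were not analysed here, for want of hg19 positions. Tiling and overlap counts were tested on simulated data first. Python 3.11.15, numpy 2.4.6, pandas 2.3.3, scipy 1.17.1 and matplotlib 3.10.9 were used.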

Additional observations from a re-analysis of the deposited data

How the results depend on the processing

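The density of the 9 windows relative to their chromosomes stayed within its Poisson interval under all 18 alternatives, at 0.774 to 0.944; the lowest value was without ATF3. The median width stayed at 330 to 360 bp. Keeping peaks of at least the median width of 316 bp left 30 peaks and 1 gene span with a peak. Extending the spans by 25 kb gave 31 peaks and by 100 kb 107, by construction. With peaks within 1 kb merged, 2 windows were above the mean of their chromosome; 6 were for the wider peaks and 5 with either extension. Spans widened by 1 kb and by 5 kb held a peak for 5 and 6 genes. A peak lay within 2 kb of the 5′ end for 1 gene and within 10 kb for 6. These counts rise with the limit by construction. Background shares at these changed limits were not computed. Another peak lay within 1 kb of 25.9% of the 54, against 18.2% of the list, and within 20 kb of 92.6%, against 90% of the list. Leaving out each gene in turn gave 42 to 54 peaks. The JUN ratio was 0 for the wider peaks, while FOSL2 and CEBPB reached 1.02 and 1.05. The list holds no score, so a stricter threshold of the authors' could not be tried. Replicates could not be left out in turn, since none is given. No paired analysis was possible because no group has a second library. Unknown depth limits what a missing peak shows, EGR1 included.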

Other observations

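Peaks written in more than 1 row made up a like share around these genes and in the list: 6 of the 54 peaks were repeated, 11.1% (95% Wilson interval 5.19 to 22.2%), against 10.7% of the list. The peak nearest to a window from outside was that at chr5:137856548-137856789, 0.547 kb from the EGR1 window. The first peak outside a limit lay a median of 16.1 kb away, and the first inside 13.5 kb.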
